A study of Mus musculus with 3 samples.

Results

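The CXC chemokine genes Cxcl1, Cxcl2, Cxcl9, Cxcl10, Cxcl13 and Cxcl16 and the related Pf4 were followed through single liver macrophages of 3 mice. They were chosen by symbol, and all 7 were among the 28692 genes of the deposited tables. Chemokines are small secreted proteins that guide leukocytes along gradients by binding receptors coupled to G proteins. The CXC family, named for the spacing of its first cysteines, splits by function into ligands of Cxcr2 that draw neutrophils (Cxcl1 and Cxcl2), interferon-induced ligands of Cxcr3 that draw T and NK cells (Cxcl9 and Cxcl10), the B cell attractant Cxcl13, which binds Cxcr5, the membrane-anchored Cxcr6 ligand Cxcl16, and platelet factor 4 (Pf4, also Cxcl4), the classic granule protein of platelets. Kupffer cells, the resident macrophages of the liver sinusoids, are a source of several of them when gut-derived bacterial products reach the liver.

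The study sequenced RNA of single liver cells from 8-week-old male mice after 0 days (normal chow), 3 days or 10 days on a Lieber-DeCarli liquid diet with 5% ethanol, with 1 mouse and 1 library per group. After perfusion, collagenase digestion and centrifugation, live cells with high F4/80 and intermediate CD11b were sorted and run on a droplet platform that counts 3' ends with unique molecular identifiers (UMIs). The control mouse ate chow, not an ethanol-free liquid diet, so the effect of ethanol cannot be told apart from that of a liquid diet. With 1 library per group, mouse, library, preparation and diet cannot be told apart, no test between groups could be run, and the intervals given are exact 95% intervals that cover counting error only.

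The libraries held 16538895 to 21650747 UMIs, and 2767 (chow), 4061 (3 days) and 3014 (10 days) barcodes passed the limits of at least 1000 UMIs, at least 300 genes and at most 10% mitochondrial UMIs. Of these 9842 cells, 8630 were called Kupffer-like, at 2396 in chow, 3598 after 3 days and 2636 after 10 days. Their defining genes were abundant, with 4120 CPM (UMI counts scaled to a common total of 1000000) of Clec4f, 5658 of Cd5l, 3460 of Vsig4 and 473 of Timd4 over the 3 libraries. Kupffer-like cells had a median depth of 4585, 3038 and 3046 UMIs in chow, 3-day and 10-day libraries, so shares of Kupffer-like and of T and NK-like cells with a UMI are given also after each cell was thinned to 1000 UMIs. Pairs of libraries shared 13 to 20 cell barcodes, against 11.3 to 16.6 expected from the sizes of the lists. Kupffer clusters 0 and 1 came mostly from chow, 2 and 3 from the 3-day library and 4 and 7 from the 10-day library, so these clusters may be libraries rather than cell states.

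Cxcl16 lies on mouse chromosome 11 and the other genes on chromosome 5 (GRCm38, GENCODE vM21 annotation). In the deposited tables the gene IDs are ENSMUSG00000029380 for Cxcl1, ENSMUSG00000058427 for Cxcl2, ENSMUSG00000029417 for Cxcl9, ENSMUSG00000034855 for Cxcl10, ENSMUSG00000023078 for Cxcl13, ENSMUSG00000018920 for Cxcl16 and ENSMUSG00000029373 for Pf4. Pf4 spans chr5:90772435-90773383 on the plus strand in 3 exons. Cxcl1 (chr5:90891241-90893115) and Cxcl2 (chr5:90903871-90905938), both on the plus strand with 4 exons, are neighbours 10755 bases apart. Cxcl9 (chr5:92321347-92328079) and Cxcl10 (chr5:92346638-92348889) are minus-strand neighbours 18558 bases apart, each with 4 exons. Cxcl13 (chr5:95956951-95961068, plus strand) has 4 exons and Cxcl16 (chr11:70453983-70459984, minus strand) has 6. Cxcl10 overlaps Art3 and Cxcl16 overlaps Zmynd15, both on the opposite strand. Whether counting used strand is not given in the sources used here. The overlapping genes were low, with at most 11 Art3 UMIs and at most 109 Zmynd15 UMIs in the Kupffer-like cells of any library.

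The promoters of Cxcl2, Cxcl9 and Cxcl10 are shown because few cells held most molecules of these genes, and because Cxcl9 and Cxcl10 differed between the small inflammatory clusters described further on. Each runs from 250 to 31 bases before the RefSeq start on the gene's own strand (RefSeq, GRCm38.p6), with matches of the NF-kB and interferon response motifs in capitals. The capitals are the NF-kB motif in Cxcl2, and in Cxcl10 the interferon response motif, a GAAA and a second GAAA after a gap of 2 bases (the first run of capitals) and the NF-kB motif (the other runs).
Cxcl2 promoter, chr5:90903649-90903868, plus strand: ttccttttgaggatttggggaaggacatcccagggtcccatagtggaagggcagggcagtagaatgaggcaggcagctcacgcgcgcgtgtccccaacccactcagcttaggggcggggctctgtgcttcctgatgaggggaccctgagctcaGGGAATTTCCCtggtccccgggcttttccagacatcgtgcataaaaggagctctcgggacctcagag
Cxcl9 promoter, chr5:92328110-92328329, minus strand: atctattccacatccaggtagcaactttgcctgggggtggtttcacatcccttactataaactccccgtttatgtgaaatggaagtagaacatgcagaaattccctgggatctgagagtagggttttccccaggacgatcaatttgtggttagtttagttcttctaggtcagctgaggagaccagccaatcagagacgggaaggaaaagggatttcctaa
Cxcl10 promoter, chr5:92348920-92349139, minus strand: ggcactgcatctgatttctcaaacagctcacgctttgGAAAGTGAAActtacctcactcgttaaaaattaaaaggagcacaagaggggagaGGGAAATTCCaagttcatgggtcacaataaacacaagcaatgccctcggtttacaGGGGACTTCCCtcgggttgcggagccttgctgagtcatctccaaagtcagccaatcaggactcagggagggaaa
Of the 7 genes, 6 had a promoter in the RefSeq table, and Cxcl16 did not. Both strands were searched. The NF-kB motif matched in 3 of the 6 (Cxcl1, Cxcl2 and Cxcl10) and in 6.34% of 32851 mouse promoters of the same length. In Cxcl10 it matched at 159 to 150 and, as 2 overlapping matches, at 104 to 94 bases before the start. Cxcl2 matched from 97 to 87 bases before the start and Cxcl1 from 71 to 61. There the matches on the 2 strands overlap and form 1 site. The interferon response motif matched in Cxcl10 only of the 6, as GAAAGTGAAA, and in 2.63% of all promoters. The gamma-activated motif TTCNNNGAA matched in none of the 6 and in 6.27% of all. The TATA motif TATAAA, left in lower case, matched in Cxcl9 from 195 to 190 and in Cxcl13 from 46 to 41 bases before the start, and in 9.95% of all. A match is a string of letters in this window and not a measured site. Motifs closer to the start than 31 bases, a TATA motif among them, could not be found in this window.

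Cxcl16 and Cxcl13 were the most abundant of the 7 genes in Kupffer-like cells, followed by Pf4, by Cxcl10 and Cxcl9 at lower levels, by Cxcl2, and by Cxcl1 at the limit of detection. UMI counts from 3' ends give 1 count per molecule, so these levels need no length correction. Cxcl9 in the 3-day library and Pf4 in the 10-day library were lower than in chow by more than 1.5-fold, and Cxcl2 was higher in both ethanol libraries than in chow. Cxcl16, Cxcl13 and Cxcl10 stayed within 1.5-fold in every pair of libraries.

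**Figure D1:**
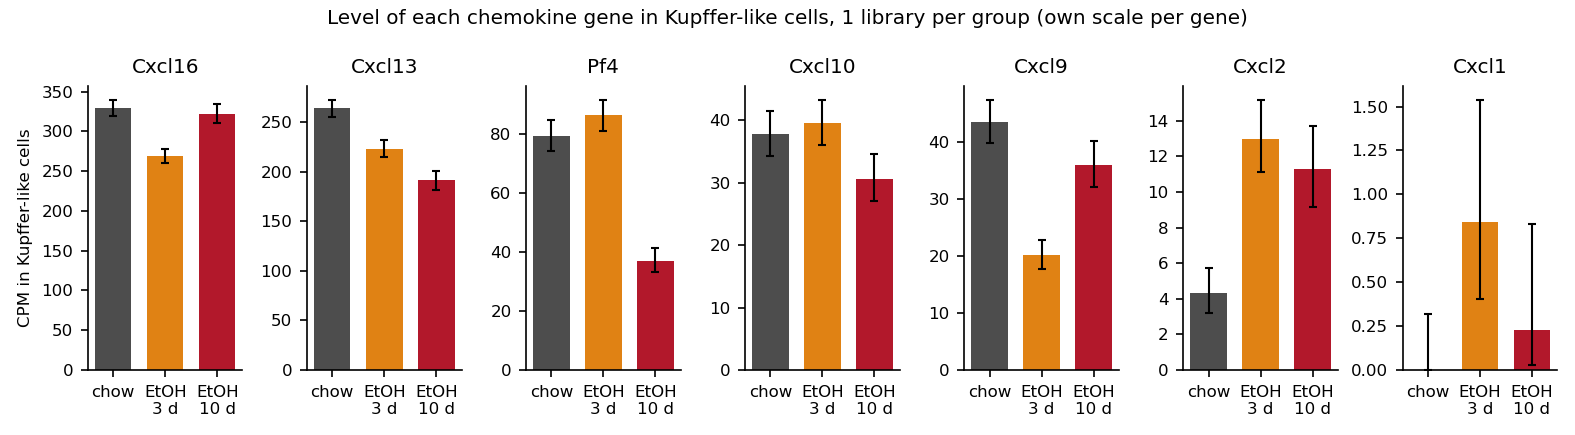
CPM of each gene in summed Kupffer-like cells of the chow, 3-day and 10-day libraries (1 library each, bars, with exact 95% Poisson intervals for counting error; each gene has its own linear scale from 0). Pf4 was lowest in the 10-day library at 37.1 CPM, Cxcl9 lowest in the 3-day library at 20.2 CPM, and Cxcl2 lowest in chow at 4.34 CPM.

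The Cxcr2 ligands were scarce. Cxcl1 had 0 UMIs among the 11509574 of chow Kupffer-like cells, which allows up to 0.261 CPM, 10 UMIs after 3 days (0.840 CPM) and 2 UMIs after 10 days (0.230 CPM). The 12 molecules lay in 9 cells, at most 2 in a cell, so Cxcl1 was barely detectable at this depth in any library. Cxcl2 had 4.34 CPM in chow (interval 3.22 to 5.73), 13 after 3 days (11.1 to 15.2) and 11.3 after 10 days (9.16 to 13.7). The ethanol libraries lay above chow without overlap of the counting intervals, at a ratio of 3.00 for 3 days over chow (2.17 to 4.21) and 2.60 for 10 days over chow (1.83 to 3.73). With a limit of 5% mitochondrial UMIs these ratios were 4.54 and 3.84. That limit left few 10-day cells. The largest Kupffer-like cluster then had 742 chow, 542 3-day and 111 10-day cells, and the next 205, 687 and 147. Here and below, values under this limit thus compare unevenly reduced sets of cells. Between the ethanol libraries the ratio, 10 days over 3 days, was 0.866 (0.666 to 1.12). With a mean under 10 CPM, Cxcl2 was below the level set for counting a gene as measured. Its values rest on 50 UMIs in chow, 155 after 3 days and 98 after 10 days. A single 3-day cell held 23 of the 155. As molecules of 1 cell are not independent, the Cxcl2 intervals are too narrow, and their lack of overlap overstates the precision.

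The Cxcr3 ligands were of similar level but differed in course. Cxcl9 had 43.5 CPM in chow (39.8 to 47.5), 20.2 after 3 days (17.7 to 22.9) and 36.0 after 10 days (32.1 to 40.2). The 3-day library was low, at 0.463 of chow (0.395 to 0.541), and the 10-day library lay between, at 0.828 of chow (0.716 to 0.955) and 1.79 times the 3-day level (1.51 to 2.12). The ratio for 10 days over chow moved with the choice of cells, to 0.496 with a limit of 5% mitochondrial UMIs and to 1.08 with a minimum of 500 UMIs. Cxcl10 had 37.8 CPM in chow, 39.6 after 3 days and 30.6 after 10 days. Its ratio was 1.05 for 3 days over chow (0.917 to 1.2), 0.810 for 10 days over chow (0.693 to 0.946) and 0.774 for 10 days over 3 days (0.663 to 0.901). With a limit of 5% mitochondrial UMIs the 10-day library was level with chow, at 42.8 against 42.6 CPM. Molecules of 1 cell are not independent, so for these genes, which few cells held, the intervals are too narrow.

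Cxcl13 had 264 CPM in chow (255 to 273), 223 after 3 days (215 to 232) and 192 after 10 days (182 to 201). The level was 0.845 of chow after 3 days (0.802 to 0.890) and 0.726 after 10 days (0.683 to 0.771). With a limit of 5% mitochondrial UMIs, which left few 10-day cells, that library was no longer lowest. The levels were then 326 CPM in chow, 294 after 3 days and 338 after 10 days. Cxcl16, which is shed from the membrane by Adam10 and Adam17, had 329 CPM in chow, 269 after 3 days and 322 after 10 days. It was 0.817 of chow after 3 days (0.779 to 0.857) and 0.980 after 10 days (0.933 to 1.03). Adam10 had 178, 210 and 255 CPM and Adam17 had 171, 152 and 194 CPM in chow, 3-day and 10-day Kupffer-like cells.

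Pf4 had 79.4 CPM in chow (74.3 to 84.7), 86.4 after 3 days (81.2 to 91.8) and 37.1 after 10 days (33.1 to 41.3). The 10-day library stood apart, at 0.467 of chow (0.410 to 0.530) and 0.429 of the 3-day level (0.377 to 0.487), while the 3-day library was at 1.09 of chow (0.994 to 1.19) and, with a limit of 5% mitochondrial UMIs, at 0.992 of it. Because Pf4 is best known from platelets, 15 platelet and megakaryocyte markers were read in the same cells. Of these, 9 had a UMI in chow, 12 after 3 days and 10 after 10 days, and their sum was 8.43, 9.66 and 7.48 CPM, with Clu highest at 5.30, 4.54 and 4.49 CPM. The defining platelet genes were at or near 0, with 5 UMIs of Ppbp in chow, 10 after 3 days and 3 after 10 days, and 0, 2 and 2 of Gp9. Cells with both Pf4 and Ppbp numbered 2, 5 and 1 of the 564, 641 and 213 cells with Pf4.

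By the rule of a ratio beyond 1.5-fold among genes with a mean of at least 10 CPM, 5 of the 7 genes were measured (Cxcl9, Cxcl10, Cxcl13, Cxcl16 and Pf4). For 3 days over chow 1 of the 5 was called, Cxcl9 lower, where 4.58% of all 7509 measured genes were called, 3.26% higher and 1.32% lower. For 10 days over chow 1 of the 5 was called, Pf4 lower, against 6.27% of all genes, 3.94% higher and 2.33% lower. For 10 days over 3 days 2 of the 5 were called, Cxcl9 higher and Pf4 lower, against 4.31% of all genes, 2.33% higher and 1.98% lower. The comparisons with chow share the chow library, and none of these counts has a replicate check. The median log2 ratio of the 5 genes was -0.24 for 3 days over chow, -0.30 for 10 days over chow and -0.22 for 10 days over 3 days, beside 0.04, 0.07 and 0.02 over all measured genes. The Cxcl9 call for 10 days over 3 days was lost at a ratio of 1.04 with a limit of 5% mitochondrial UMIs, at 1.41 with each cell weighted equally and at 1.23 in thinned cells. Median mitochondrial shares of kept cells were 5.12% in chow and after 3 days and 6.29% after 10 days.

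**Figure D2:**
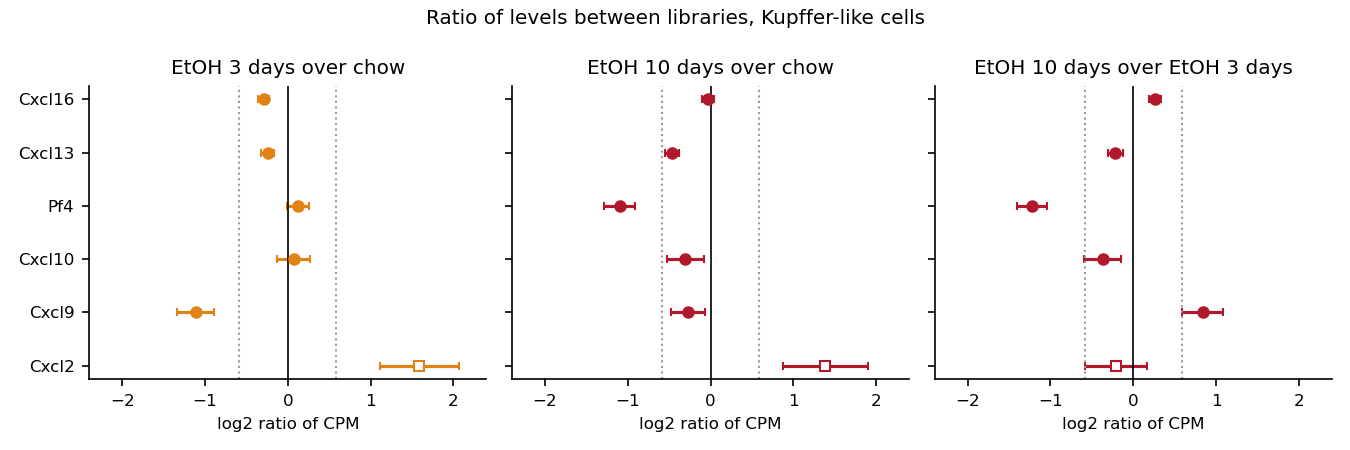
Ratio of CPM between libraries on a log2 axis for 6 genes in Kupffer-like cells, with exact conditional 95% intervals for counting error; open squares mark Cxcl2, whose mean was under 10 CPM, and dotted lines mark 1.5-fold. Pf4 lies left of the limit in both comparisons of the 10-day library (0.467 of chow and 0.429 of 3 days), and Cxcl9 lies left of it for 3 days over chow (0.463).

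The genes also differed in how their molecules were spread over cells. A gene with few UMIs can only be seen in few cells, so spread and level are not separate measures. Cxcl16 was a broadly detected gene, with a UMI in 71.2% of Kupffer-like cells in chow, 54.6% after 3 days and 60.0% after 10 days. In cells thinned to 1000 UMIs these shares were 28.2%, 24.9% and 28.4%, so the gap between libraries was smaller at equal depth. It took 19.2%, 15.9% and 17.0% of the cells to hold 50% of its UMIs, and no cell had more than 15. Its variance over mean in thinned cells was 1.01, 1.06 and 1.07, beside a median of 1.01 over measured genes.

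Cxcl13 and Pf4 were intermediate. Cxcl13 was seen in 36.8% of Kupffer-like cells in chow, 21.9% after 3 days and 21% after 10 days (thinned 14.8%, 11% and 9.41%), and 111, 74 and 52 cells held 50% of its UMIs. The 1% of cells with most held 21.4% of Cxcl13 UMIs in chow, 37.1% after 3 days and 38.3% after 10 days, so a larger share of the gene lay in few cells in the ethanol libraries. A single 3-day cell had 138 Cxcl13 UMIs out of 8408, and it held neither Cxcl9 nor Cxcl10. Pf4 was seen in 23.5%, 17.8% and 8.08% of cells (thinned 6.01%, 7.09% and 3.07%), with at most 11, 15 and 14 UMIs in a cell. Cells holding 50% of the Pf4 UMIs numbered 149 in chow, 169 after 3 days and 53 after 10 days.

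Cxcl9 and Cxcl10 were held by very few cells. A Cxcl9 UMI was found in 3.17% of Kupffer-like cells in chow, 1.92% after 3 days and 2.73% after 10 days, and 5, 6 and 6 cells held 50% of all its UMIs. In thinned cells the shares were 1.17%, 0.806% and 1.25%, with intervals that overlap. The 10 cells with most held 74.5% of Cxcl9 UMIs in chow, 63.8% after 3 days and 65.8% after 10 days. Over the 3 libraries 13 of 8630 cells held 50%. For Cxcl10 the shares of cells with a UMI were 6.14%, 5.45% and 3.38%, and 10, 22 and 7 cells held 50%. At equal depth its order of chow and 3 days was the other way, with thinned shares of 1.92%, 2.36% and 1.48% and overlapping intervals. By variance over mean in thinned cells Cxcl9 ranked 4 of 7484 genes in chow, 1 of 7483 after 3 days and 6 of 7486 after 10 days. Cxcl10 ranked 11, 18 and 12, and Cxcl13 24, 9 and 11. For comparison, the deepest 1% of cells held 2.53% to 2.80% of all UMIs. The 10 cells with most Cxcl9 had a median of 6876 UMIs in chow, 4156 after 3 days and 5329 after 10 days, all deeper than the median Kupffer-like cell. A doublet caller marked 0 cells in each library and no doublets were removed, so whether any of these cells was a doublet was not tested.

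**Figure D3:**
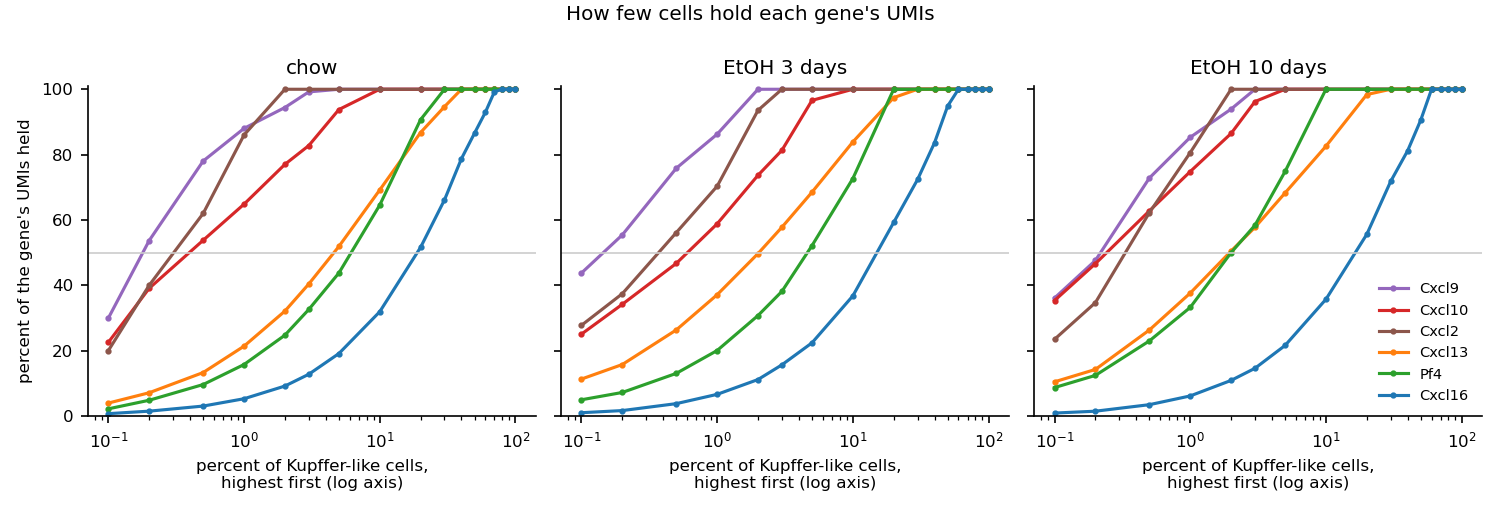
Percent of each gene's UMIs (vertical axis) held by a given percent of Kupffer-like cells, ordered from the cell with most (horizontal log axis), 1 panel per library; the grey line marks 50%. Curves for Cxcl9, Cxcl10 and Cxcl2 reach 50% in under 1% of cells in every library, and the curve for Cxcl16 reaches it in 15.9% to 19.2% of cells. Cxcl2 has so few UMIs (50 in chow) that few cells would hold 50% whatever the spread.

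Cxcl2 was also held by few cells, 1.29% in chow, 2.28% after 3 days and 1.71% after 10 days (thinned 0.501%, 1.08% and 0.759%), with 8, 14 and 9 cells holding 50% of its UMIs. With only 50, 155 and 98 UMIs, few cells would hold 50% whatever the spread. In chow 22 of its 31 cells had a single UMI. Its variance over mean in thinned cells was 1.15, 1.82 and 2.37, against 7.10, 7.04 and 3.57 for Cxcl9. Without the 10 cells with most Cxcl2 of each library, 1.82 CPM were left in chow, 7.31 after 3 days and 5.29 after 10 days. The ethanol libraries were above chow there too. But the 10 cells were taken from 31 cells with Cxcl2 in chow, 82 after 3 days and 45 after 10 days. They held 58.0%, 43.9% and 53.1% of its UMIs. Because the removal lowered chow most, it cannot decide whether few cells made the difference. Without its own 10 top cells Cxcl9 had 11.1 CPM in chow, 7.31 after 3 days and 12.3 after 10 days, a ratio of 0.657 for 3 days over chow and of 1.11 for 10 days over chow. Cxcl10 without its top cells had 18.6, 24.0 and 12.8 CPM, and the ratio for 10 days over 3 days, 0.532, was then beyond the 1.5-fold limit. The same held for Cxcl13, 10 days over chow, with a ratio of 0.634 without its top cells.

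The cells richest in Cxcl9 and Cxcl10 overlapped in part. Of 41 Kupffer-like cells with at least 5 Cxcl9 UMIs, 15 had any Cxcl10, and of 38 cells with at least 5 Cxcl10 UMIs, 19 had any Cxcl9. There were 13 cells with at least 5 of both. The richest Cxcl9 cell, a chow cell of 7267 UMIs, had 92 Cxcl9, 30 Cxcl10 and 5 Cxcl2. A chow cell of 6486 UMIs had 58 Cxcl9 and 0 Cxcl10. A 10-day cell of 8185 UMIs had 39 Cxcl9 and 0 Cxcl10, beside 29 Cxcl13. Both kinds of cell, rich in Cxcl9 with Cxcl10 and rich in Cxcl9 without it, were thus found. Counted from 1 UMI up, 37 cells held both, which is 17.1% of the 217 Cxcl9 cells and 8.56% of the 432 Cxcl10 cells. Among all Kupffer-like cells 5.01% had Cxcl10, 2.51% had Cxcl9 and 1.83% had Cxcl2. Cxcl2 and Cxcl10 shared 38 cells, which is 24.1% of the 158 Cxcl2 cells and 8.80% of the Cxcl10 cells, while Cxcl2 and Cxcl9 shared 9 cells, 5.70% and 4.15%. Deeper cells hold more of any gene, and in cells thinned to 1000 UMIs the Cxcl9 and Cxcl10 overlap was 19 cells, 21.1% of 90 and 11.2% of 170, beside 1.97% with Cxcl10 and 1.04% with Cxcl9 among all.

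Clusters had been made without any chemokine gene. Even so, 99 Kupffer-like cells (25 in chow, 42 after 3 days and 32 after 10 days, or 1.15% of Kupffer-like cells) in 2 small clusters held 40.5% of all Cxcl9 UMIs, 43.0% of Cxcl10 and 27.1% of Cxcl2, with 1.32% of all UMIs. Cluster 19 (36 cells) was led by interferon-induced genes such as Gbp2, Gbp5, Serpina3g and Iigp1, with Cd40 and Cd274. Cluster 21 (63 cells) was led by Nfkbiz, Tnfaip3, Cd83, Tnf, Il1b and Il6, which NF-kB is known to induce. These leading genes defined the clusters and are no finding. The chemokines were not used to define them.

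Cxcl9 was higher in cluster 19 than in cluster 21 in every library. Cluster 19 had 3295 CPM of Cxcl9 in chow, 2001 after 3 days and 1796 after 10 days, and cluster 21 had 0, 62.1 and 0 CPM. At this depth the zeros allow up to 50.5 CPM in chow and 43.7 after 10 days, above the Kupffer-like means of those libraries, and the 3-day value, 8 UMIs in 2 of 31 cells, lay above the Kupffer-like mean of 20.2 CPM. Cxcl10 was high in both, with 2123, 2168 and 2309 CPM in cluster 19 and 286, 760 and 335 CPM in cluster 21. Cxcl2 too was found in both, with 96.5, 604 and 385 CPM in cluster 19 and 84.2, 85.3 and 175 CPM in cluster 21. With 11 to 13 cells per library in cluster 19, single cells weigh heavily. Of its 36 cells 58.3% had a Cxcl9 UMI.

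Over the 3 libraries the 99 cells stood above the other Kupffer-like cells at 1007 against 19.8 CPM for Cxcl9, 1188 against 21.1 CPM for Cxcl10, 193 against 6.98 CPM for Cxcl2 and 971 against 219 CPM for Cxcl13. Smaller differences were seen for Cxcl16, at 488 against 303 CPM, and for Pf4, at 141 against 69.6 CPM, though not for Pf4 in the 10-day library, at 34.7 against 37.1 CPM. The ratios were 50.9 for Cxcl9 (44.9 to 57.6), 56.3 for Cxcl10 (50.1 to 63.4), 27.7 for Cxcl2 (21.2 to 35.9), 4.43 for Cxcl13 (4.0 to 4.90), 1.61 for Cxcl16 (1.40 to 1.85) and 2.03 for Pf4 (1.55 to 2.63). Cxcl13 in these cells was 842 CPM in chow, 786 after 3 days and 1404 after 10 days, against 257, 214 and 175 CPM in the other Kupffer-like cells. Of the 162 UMIs of the 10-day cells 1 cell held 65, and without the cell with most Cxcl13 in each library the levels were 652, 626 and 876 CPM. The difference in course between these cells and the rest was not tested.

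**Figure D4:**
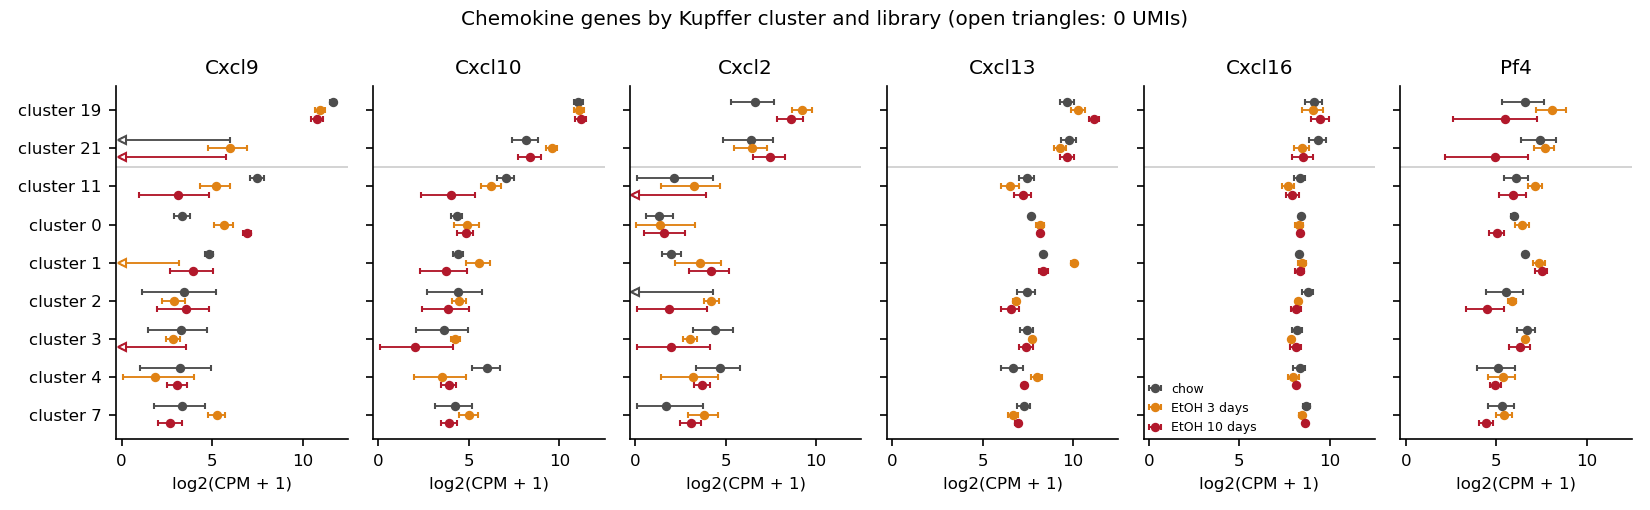
Level of 6 genes, as log2(CPM + 1), in 9 Kupffer-like clusters (rows) of each library (colours), with exact 95% Poisson intervals for counting error; open triangles mark 0 UMIs, and clusters 19 and 21 lie above the grey line. Cluster 19 holds 1796 to 3295 CPM of Cxcl9 and cluster 21 at most 62.1 CPM, while Cxcl16 runs from 208 to 706 CPM over all rows.

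Among the 7 other Kupffer clusters, each with at least 20 cells in every library, Cxcl9 was lower than in chow in 5 and higher in 2, both after 3 days and after 10 days. In clusters 2, 3, 4 and 7 chow had only 2, 3, 2 and 4 Cxcl9 UMIs, so the directions there rest on very few molecules. Cluster 1 had 27.9 CPM in chow, from 160 UMIs of which 1 cell held 58, 0 UMIs after 3 days (up to 6.49 CPM) and 14.6 CPM after 10 days. In cluster 0 it had 9.20 CPM in chow, 49.4 after 3 days and 120 after 10 days, the last from 180 UMIs in 26 of 409 cells. In the proliferating cluster 11 it had 180 CPM in chow, 36.1 after 3 days and 7.59 after 10 days, and 1 chow cell held 52 of the 53 chow UMIs. Without clusters 19 and 21, Cxcl9 had 23.0 CPM in chow, 11.6 after 3 days and 26.7 after 10 days, so the 3-day library remained lowest and the 10-day library was then at 1.16 of chow.

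Pf4 showed the same side in most clusters. Among clusters with at least 20 cells in both libraries, it was lower after 10 days than in chow in 6 of 7 (ratios from 0.468 to 1.87), and lower after 10 days than after 3 days in 7 of 8. The exception in both was cluster 1, with 96.1 CPM in chow, 162 after 3 days and 180 after 10 days. In cluster 0 it had 62.5, 84.5 and 31.9 CPM, and in cluster 7 it had 38.4, 42.6 and 20.6 CPM. Cxcl13 had no common side for 3 days over chow, being higher in 4 of 7 clusters and lower in 3. For 10 days over chow it was higher in 3 and lower in 4. Its 3-day level in cluster 1 was 1042 CPM, against 322 CPM in chow, with 28.6% of the 3-day UMIs in 1 cell. Cxcl16 was lower than in chow in 6 of 7 clusters after 3 days (ratios from 0.645 to 1.14). After 10 days it was also lower in 6 of 7 (0.641 to 1.02). Cxcl10 was higher than in chow in 5 of 7 clusters after 3 days and lower in 6 of 7 after 10 days.

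Levels also moved with the depth of a cell. Cells of each library were split into 3 equal groups from shallow to deep. Cxcl13 had 169, 213 and 329 CPM in the shallow, middle and deep cells of chow, 117, 157 and 302 CPM in those of 3 days, and 105, 143 and 253 CPM in those of 10 days. Pf4 had 56.2, 68.4 and 94.3 CPM in chow, 53.5, 78.6 and 103 CPM after 3 days, and 18.8, 25.9 and 50.5 CPM after 10 days. In each of the groups both genes had their lowest level in the 10-day library. The groups were cut within each library and differ in depth. Median depths were 2653, 4585 and 6962 UMIs in chow, 1878, 3038 and 4731 after 3 days, and 1853, 3046 and 4640 after 10 days. Middle chow cells were thus near the deep cells of the ethanol libraries. Between those groups Cxcl13 was lowest in chow, at 213 CPM against 302 after 3 days and 253 after 10 days. Pf4 was still lowest after 10 days, at 68.4, 103 and 50.5 CPM. Cxcl16 went the other way, with 376, 329 and 313 CPM from shallow to deep in chow. The part of depth in the differences between libraries was not tested beyond these values.

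Across cell classes most UMIs of these genes lay in Kupffer-like cells, the largest class, and some of the genes were found elsewhere too. Kupffer-like cells held 94.3% of the Cxcl13 UMIs of all kept cells, 94.1% of Cxcl2, 91.7% of Pf4, 90.5% of Cxcl16, 85.7% of Cxcl10 and 82.9% of Cxcl9. They were 86.6% to 88.6% of kept cells, so the shares of UMIs lay near their share of cells. Endothelial-like cells (47 in chow, 110 after 3 days and 77 after 10 days) had more Cxcl9 per UMI than Kupffer-like cells in each library, at 110 against 43.5 CPM in chow, 78.6 against 20.2 CPM after 3 days and 97.5 against 36.0 CPM after 10 days. The ratios were 2.53 (1.49 to 4.04), 3.90 (2.42 to 5.99) and 2.71 (1.67 to 4.17). These rest on 18, 23 and 22 UMIs, found in 13, 18 and 6 cells, with at most 3, 3 and 15 in a cell. The 10-day level thus came mostly from a single cell. Kupffer RNA in the same cells was at a fraction of its Kupffer level, with ratios of 0.325, 0.222 and 0.279 for Clec4f and 0.617, 0.514 and 0.478 for Pf4. The Pf4 intervals include 1 in chow (0.266 to 1.22) and after 10 days (0.129 to 1.24). Cxcl13 was at 0.162, 0.138 and 0.0694 of its Kupffer level.

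Cxcl16 in endothelial-like cells was close to that in Kupffer-like cells, at 367 against 329 CPM in chow, 294 against 269 CPM after 3 days and 252 against 322 CPM after 10 days. Its transcripts were scarce in T and NK-like cells, at 24.4, 17.8 and 41.6 CPM. Cluster 5 (63, 52 and 31 cells) pooled monocyte-like, dendritic-like and mixed parts. It had 52.5 and 105 CPM of Cxcl9 in chow and after 3 days and 0 UMIs after 10 days. Its Cxcl10 was 81.4, 86.9 and 6.07 CPM, in 3, 3 and 1 cells. Cluster 10, which carried Kupffer and T cell markers together, had Kupffer-like levels of Cxcl16 at 294, 273 and 295 CPM.

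**Figure D5:**
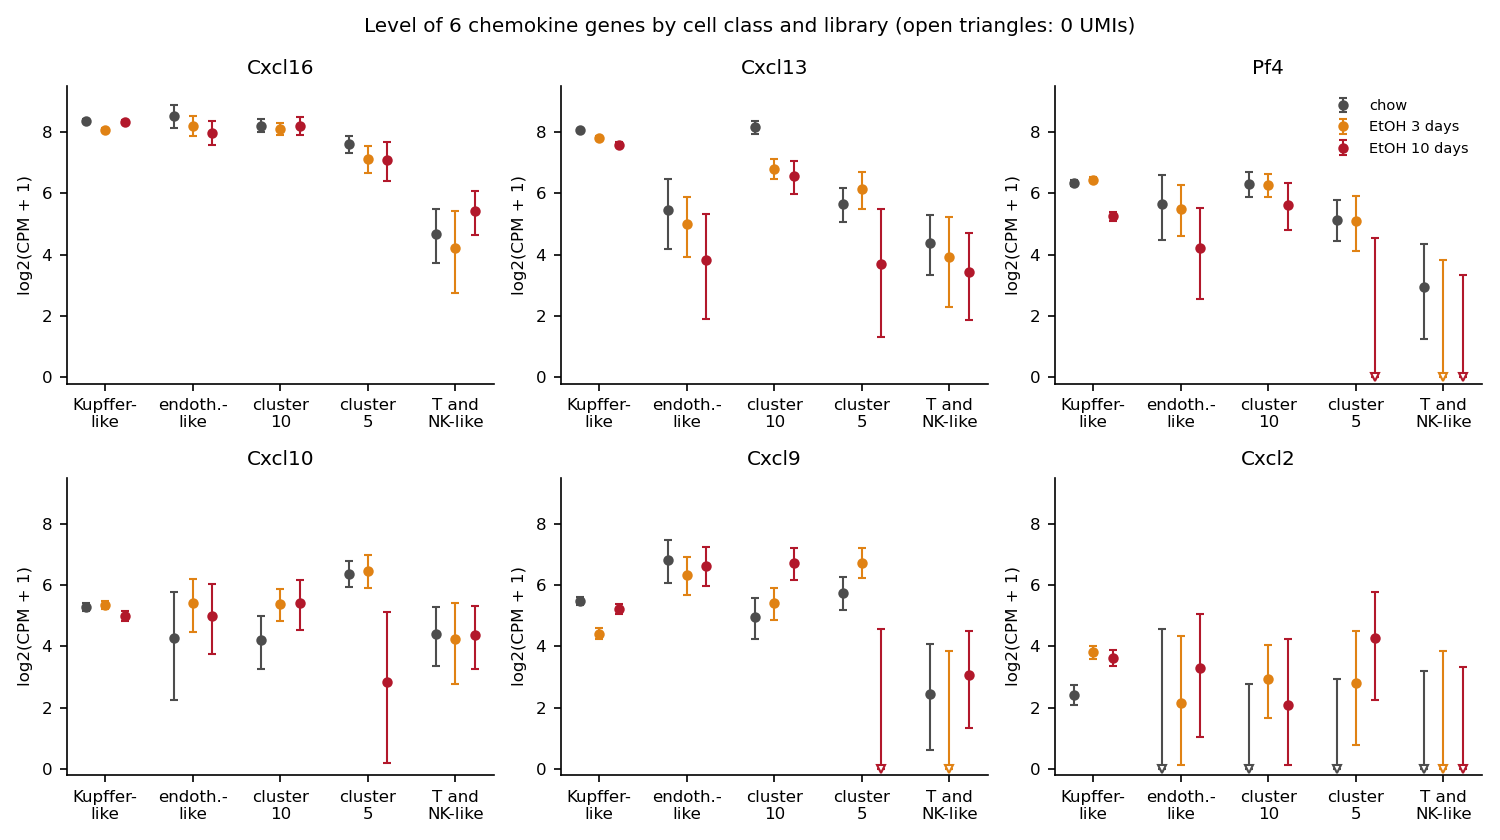
Level of 6 genes, as log2(CPM + 1), in the 5 largest cell classes of each library (colours), with exact 95% Poisson intervals for counting error; open triangles mark 0 UMIs. Cxcl9 is higher in endothelial-like than in Kupffer-like cells in each library, after 10 days mostly from a single cell. Cxcl13 and Pf4 are higher in Kupffer-like cells than in endothelial-like and T and NK-like cells. For Pf4 in chow and after 10 days the counting interval of the ratio of endothelial-like to Kupffer-like cells includes 1.

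T and NK-like cells served as the class that should lack these genes. Their median depth was 3538 UMIs in chow, 2614 after 3 days and 2448 after 10 days. Shares with a UMI were 71.2%, 54.6% and 60.0% of Kupffer-like cells for Cxcl16, against 7.69%, 5.56% and 11.1% of T and NK-like cells (thinned 0.855%, 1.11% and 5.88%). For Cxcl13 they were 36.8%, 21.9% and 21%, against 7.69%, 4.44% and 2.61% (thinned 2.56%, 3.33% and 1.96%). For Pf4 they were 23.5%, 17.8% and 8.08%, against 2.56%, 0% and 0%, where the zeros allow up to 3.33% after 3 days and 1.96% after 10 days. In thinned chow cells the Pf4 share was 6.01% in Kupffer-like and 1.71% in T and NK-like cells, with intervals that overlap. For Cxcl9 and Cxcl10 the T and NK-like shares of up to 1.71% and 3.42% have intervals that overlap those of Kupffer-like cells, so cells with a single UMI of these genes cannot be told apart from background. The highest counts in a T and NK-like cell were 6 UMIs of Cxcl10 and 2 UMIs of Cxcl9, below the 64 and 92 UMIs of the richest Kupffer-like cells.

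RNA outside cells, read from barcodes with 10 to 100 UMIs, held Pf4 at 87.2 CPM in chow, 94.1 after 3 days and 43.6 after 10 days. The 10-day library was lowest there as in the cells. Cxcl9 outside cells was at 28.3, 12 and 15.9 CPM and Cxcl13 at 229, 196 and 128 CPM. Cxcl2 outside cells was at 6.86 CPM in chow, 12.3 after 3 days and 13.7 after 10 days. It was thus lowest in chow there too, as in Kupffer-like cells. The counting intervals of chow (4.66 to 9.74) and 3 days (9.14 to 16.1) overlapped. Cxcl1 had 1 UMI outside cells in chow, 12 after 3 days and 2 after 10 days. The part of free RNA in the differences between libraries was not tested.

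Receptors and inducers were read from lists of related genes. None of 9 receptors reached 10 CPM in Kupffer-like cells. Cxcr6, the receptor of Cxcl16, had 914, 957 and 766 CPM in T and NK-like cells of chow, 3 days and 10 days, and Cxcr3, the receptor of Cxcl9 and Cxcl10, had 228, 214 and 176 CPM. Cxcr5 had at most 3 UMIs in either class. Cxcr2 was found in the unnamed cluster 14, which carried Kupffer and neutrophil markers, at 164, 229 and 270 CPM.

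Of 17 measured interferon gamma pathway genes none was beyond 1.5-fold higher and 3 were lower for 3 days over chow, against 1.32% of all measured genes lower. For 10 days over chow none was higher and 5 were lower, against 2.33% of all lower. Gbp2, an interferon-induced GTPase, had 56.6 CPM in chow, 28.4 after 3 days and 32.5 after 10 days, and Ifngr1, a receptor chain, had 499, 699 and 595 CPM. Of 19 type I interferon genes none passed 1.5-fold for 3 days over chow, and 5 were lower for 10 days over chow, where 2.33% of all measured genes were, among them Isg15 with 36.1 against 74.5 CPM and Ifit3 with 37.6 against 71.8 CPM.

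Of 17 measured NF-kB target genes 3 were higher and none lower for 3 days over chow, beside 3.26% and 1.32% of all measured genes. For 10 days over chow 3 were higher and 2 lower, beside 3.94% and 2.33% of all. Among the CC chemokines of that list Ccl4 had 36.1 CPM in chow, 63.0 after 3 days and 83.2 after 10 days, while Ccl7 had 7.02 CPM after 10 days against 17.1 in chow. Il6 had 8.17, 13.6 and 18.8 CPM in chow, 3-day and 10-day cells. Immediate-early genes, which tissue dissociation can induce, moved along with Cxcl2, with 9 of 15 higher and none lower for 3 days over chow and 7 higher and none lower for 10 days over chow, where 3.26% and 3.94% of all measured genes were higher. Klf4 had 23.8 CPM in chow, 59.0 after 3 days and 102 after 10 days. Their part in the Cxcl2 difference was not tested.

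No gene reached a correlation of 0.2 in every library with any of the chemokines across Kupffer-like cells. The nearest for Cxcl9 were Serpina3g (lowest r of the 3 libraries 0.140), Gbp5 (0.138) and Cxcl10 (0.131). Cxcl9 and Cxcl10 had r of 0.380 in chow, 0.178 after 3 days and 0.131 after 10 days, over cells that share a library, and such weak values in sparse counts are no finding. Across 15 sums of 5 classes by 3 libraries, which share libraries, Cxcl16 was most like Slc35f6 (r = 0.983) and Cxcl13 most like Arhgap19 (0.927). Pf4 was most like Ctc1 (0.942), Cxcl9 most like Cdc42ep4 (0.895) and Cxcl10 most like Sirpb1c (0.796). Each is the highest r of many genes over only 15 sums, so these values are no finding either.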

How the data were processed

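The authors deposited raw UMI counts per gene and barcode for every barcode of the kit, 1 table per library. Per the submitters' processing notes, Cell Ranger 2.2.0 and the builds GRCm38 and mm10 were used. The annotation release, cell calling and strand setting are not given in the sources used here. All barcodes with at least 1000 UMIs, at least 300 genes and at most 10% UMIs of mt- genes were kept as cells.

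Cells were clustered with scanpy 1.11.5 without chemokine genes and without batch correction, on 2000 variable genes, 30 components and 15 neighbours, with Leiden clustering at resolution 0.6. Clusters were named from marker lists when at least 3 markers led them. Kupffer-like clusters were an exception, as at most 1 Kupffer marker led any of them. Their median ratio for Kupffer markers was 0.837 to 1.115, where a minimum of 0.5 had been set. Clusters with markers of several cell types were clustered once more within themselves, a step added after the first clustering was seen. What stayed mixed was left unnamed. Cluster 5 is shown as a single class, though its parts were 25 and 35 monocyte-like cells, 20 dendritic-like cells and 66 mixed cells. Classes were thus rebuilt here and are not the authors'. Scrublet marked 0 cells, so no doublets were removed.

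The summed counts of a class in a library were scaled to a total of 1000000 (CPM), with exact Poisson intervals, and ratios have exact conditional binomial intervals at the 95% level. A gene was measured at a mean of at least 10 CPM in Kupffer-like cells and called past a ratio of 1.5. A count of 0 was given the upper limit of 3 counts. Of the 28692 gene IDs 28339 were found in GENCODE vM21, all 7 chemokine genes among them. The scripts were tested on simulated data. The genes named were all 7 chemokines, the genes most like each, and, of each list, the measured genes with the highest and lowest ratios against chow, of which some are printed. Members, lists and rules were chosen with earlier results of these data known. The alternatives tried are given in the closing section.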

Additional observations from a re-analysis of the deposited data

Results flagged for a closer look

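Cxcl10 and Pf4 lay above chow in the 3-day library and below it in the 10-day library. Cxcl10 in Kupffer-like cells was at a ratio of 1.05 for 3 days over chow and of 0.81 for 10 days over chow. Pf4 was at 1.09 for 3 days over chow and at 0.467 for 10 days over chow. Both pairs of ratios share the single chow library, each ethanol group is 1 library, and the difference between the ethanol libraries was not tested. The counting intervals of the ratios for 3 days over chow include 1 for both genes. With a limit of 5% mitochondrial UMIs neither gene lay on opposite sides of chow. Cxcl10 was then at 42.8 CPM after 10 days against 42.6 CPM in chow, and Pf4 at 90.7 CPM after 3 days against 91.4 CPM in chow. This limit left fewer 10-day cells than chow or 3-day cells.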

How the results depend on the processing

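No paired analysis was possible because each group was 1 library and the labels carry no replicate numbers. The count of chemokine genes past 1.5-fold was 1 for 3 days over chow, 1 for 10 days over chow and 2 for 10 days over 3 days. With at most 5% mitochondrial UMIs these counts were 2, 3 and 1, and in cells thinned to 1000 UMIs also 2, 3 and 1. The 5% limit left fewer cells of the 10-day library than of the others. With the 4% of cells of highest doublet score removed, and with totals without mitochondrial and ribosomal protein genes, the counts against chow were 2 and 2. With no minimum CPM they were 3 and 2, and that for 10 days over 3 days was 3. Without the 10 cells with most UMIs of the gene the count for 10 days over chow was 2 and that for 10 days over 3 days was 3, and with each cell weighted equally that for 10 days over 3 days was 1. The added calls were Cxcl2 higher, which there passed the minimum of 10 CPM or had none to pass, Cxcl9 lower for 10 days over chow (with the 5% limit and in thinned cells), Cxcl1 higher for 3 days over chow and lower for 10 days over 3 days with no minimum, and, each without its top cells, Cxcl13 lower for 10 days over chow and Cxcl10 lower for 10 days over 3 days. No ratio changed from a call in one direction to a call in the other. Over 15 alternatives Pf4 kept its calls, at 0.411 to 0.627 for 10 days over chow and 0.381 to 0.632 for 10 days over 3 days, and Cxcl9 kept its call for 3 days over chow, at 0.426 to 0.657. Cxcl9 for 10 days over 3 days ran from 1.04 to 2.30 and was called in 12 of 15, and for 10 days over chow it ran from 0.496 to 1.16. Cxcl13 for 10 days over chow ran from 0.634 to 1.04 and for 10 days over 3 days from 0.792 to 1.15, above 1 only with the 5% limit. The causes were not tested. Alternatives without clusters 19 and 21, with the unnamed clusters 10, 14 and 20, and for Cxcl13 in clusters 19 and 21 without the top cell were chosen after seeing the data. Few cells limit Cxcl9, Cxcl10 and Cxcl2, and depth limits Cxcl1.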

Other observations

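Other CXC ligands were read in the same cells. Cxcl14 was the only one of 7 in the files that reached 10 CPM in Kupffer-like cells, at 20.2 CPM in chow, 18.4 after 3 days and 28.0 after 10 days. Cxcl12, the Cxcr4 ligand, had a higher level in endothelial-like cells, at 49.0, 174 and 66.4 CPM, against 5.04, 5.71 and 5.64 CPM in Kupffer-like cells, which held more of its UMIs (58, 68 and 49, against 8, 51 and 15 in endothelial-like cells). Cxcl3, Cxcl5 and Cxcl15 had 0 CPM in Kupffer-like and endothelial-like cells of each library.

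Mmp9, a protease that can cleave several CXC chemokines, had 4.60 CPM in Kupffer-like cells of chow, 10.4 after 3 days and 22.1 after 10 days, a ratio of 4.80 for 10 days over chow (3.52 at the lower bound of the counting interval). Mmp9 also led cluster 14, which carried neutrophil markers. The 15 neutrophil markers summed to 68.2, 61.3 and 78.4 CPM in Kupffer-like cells, with 11, 9 and 14 of 15 seen, most of it Csf3r, and their part in the Mmp9 difference was not tested.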
